A study of Zea mays with 4 samples.

Results

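The genes described here were nearly restricted to the top internode of the maize stem in the FPKM values (fragments scaled to the length of the gene and the size of the library). A gene was a member when top internode (TI) replicate 1 had at least 10 FPKM, when both female inflorescence (FI) libraries had at most 5% of that value, and when TI replicate 2 was above both FI libraries. These conditions gave 53 genes of 39179 in the table, or 0.654% of the 8107 genes with at least 10 FPKM in TI replicate 1. The difference between TI and FI chose the members, so their FPKM in the 2 tissues are a description and were given no test.

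Both tissues came from Puma hybrid maize plants grown in pots in a greenhouse and collected at 60 DAS (days after sowing), before pollination, at the early reproductive stage R1. TI was the top internode section of the stem, with 2 libraries of total RNA. FI was the ear, bagged before its silks emerged, with 2 libraries. The study describes the libraries of a tissue as biological replicates, and the plants behind each library are not given in the sources used here.

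An internode carries vascular bundles in a ground tissue of parenchyma under a rind whose outer cells can hold chloroplasts. It moves water, minerals, amino acids and sugars and can store carbon for a time. The ear at R1, with its silks emerging and before pollination, is a growing sink of cob and florets that lives on imported carbon. In a bulk tissue sample, fewer cells of a type and less RNA per cell cannot be told apart.

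Total deposited counts were 1817889 and 1455729 in TI and 2431447 and 2072230 in FI. The FPKM values of each gene were whole multiples of the value of a single fragment, which gave back 2981301 and 2425838 fragments in TI and 3961165 and 3456030 in FI. At this depth Zm00001d022233, the member with the fewest fragments in TI replicate 1, had 5 and 3 in TI. Intervals given with ratios are 95% exact binomial intervals on these fragments and cover counting error only.

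The 2 TI libraries were not alike. Of the genes with at least 10 FPKM in both FI libraries, 390 were at no more than 5% of the FI mean in TI replicate 1, where their median was 0.882% of that mean. TI replicate 2 had a median of 45.7% of the FI mean over these genes, with quartiles of 39.0% and 52.4%, and was above TI replicate 1 in 390 of 390. The choice of these genes used TI replicate 1 and not TI replicate 2.

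Most floral markers were also higher in TI replicate 2. In CPM (counts scaled to the size of the library), 9 of the 11 inflorescence and floral markers matched in the count table were higher in TI replicate 2 than in TI replicate 1, 1 was lower and bd1 was at 0 in both. The genes named here were chosen after their values were seen. The floral MADS-box gene zag1 had 2 and 42 counts in TI, against 228 and 121 in FI. The SPL gene ub3, which acts in maize inflorescence branching, had 2 and 22 counts in TI, against 45 and 38 in FI. Others of the 9 rested on few counts or a small change: si1 had 0 and 1 counts in TI, ub2 0 and 3, and fea2 93 and 96. The share of all count models that were higher in TI replicate 2 was not computed. The marker that was lower in TI replicate 2 was td1, a receptor-like protein kinase gene that limits meristem size, with 289 and 122 counts in TI, against 188 and 93 in FI. Of the 4 epidermis and wax markers matched, 2 were higher in TI replicate 2 than in TI replicate 1, 1 was lower and 1 was equal. From that list, the homeobox gene ocl1 had 1 and 17 counts in TI, against 44 and 42 in FI. The lower one, gl1, had 2 and 0 counts in TI, against 2 and 4 in FI. The summed CPM of the 11 floral markers was 254 and 291 in TI, against 405 and 357 in FI, and without td1 it was 94.6 and 207 in TI, against 327 and 312 in FI. Of the 11, 7 and 10 were above 0 in the TI libraries. The 6 leaf mesophyll and bundle sheath markers summed to 1560 and 815 CPM in TI, against 453 and 384 CPM in FI. All 6 leaf markers were lower in TI replicate 2 than in TI replicate 1.

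**Figure D1:**
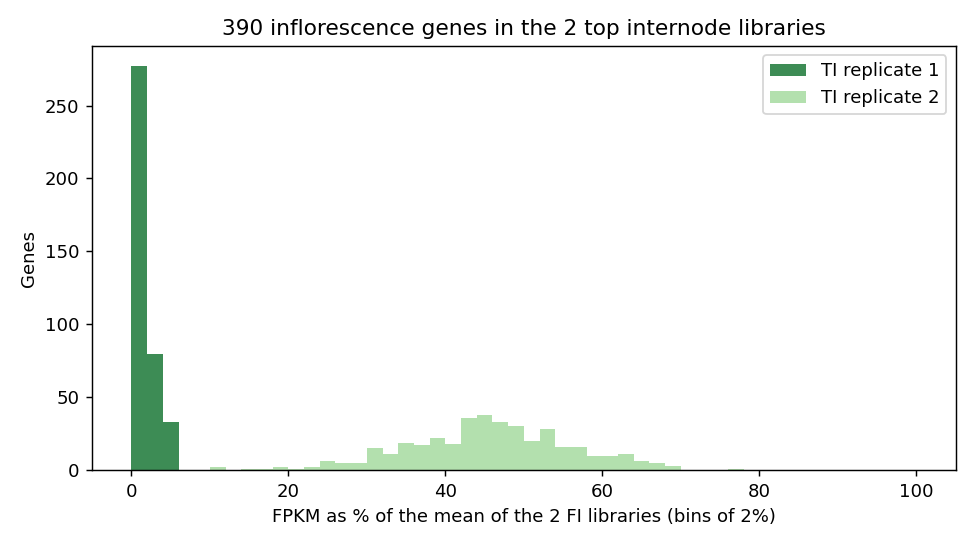
Distribution of FPKM in the 2 TI libraries as a percent of the mean of the 2 FI libraries (x axis, bins of 2%), with the number of genes on the y axis, for the 390 genes with at least 10 FPKM in both FI libraries and at most 5% of their mean in TI replicate 1. TI replicate 1 lies at or below 5% because the genes were chosen so, with a median of 0.882%. TI replicate 2, which was not used in the choice, has a median of 45.7%.

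Summed over the 53 members, FPKM came to 3290 and 1450 in TI, against 78.9 and 50.7 in FI. TI replicate 1 ranged from 10.6 to 480 FPKM over the members, with 9 members at 100 FPKM or more and 21 under 20 FPKM. In TI replicate 2, 28 members had at least 10 FPKM. Against the level in TI replicate 2, the higher of the FI libraries was over 5% in 32 members.

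**Figure D2:**
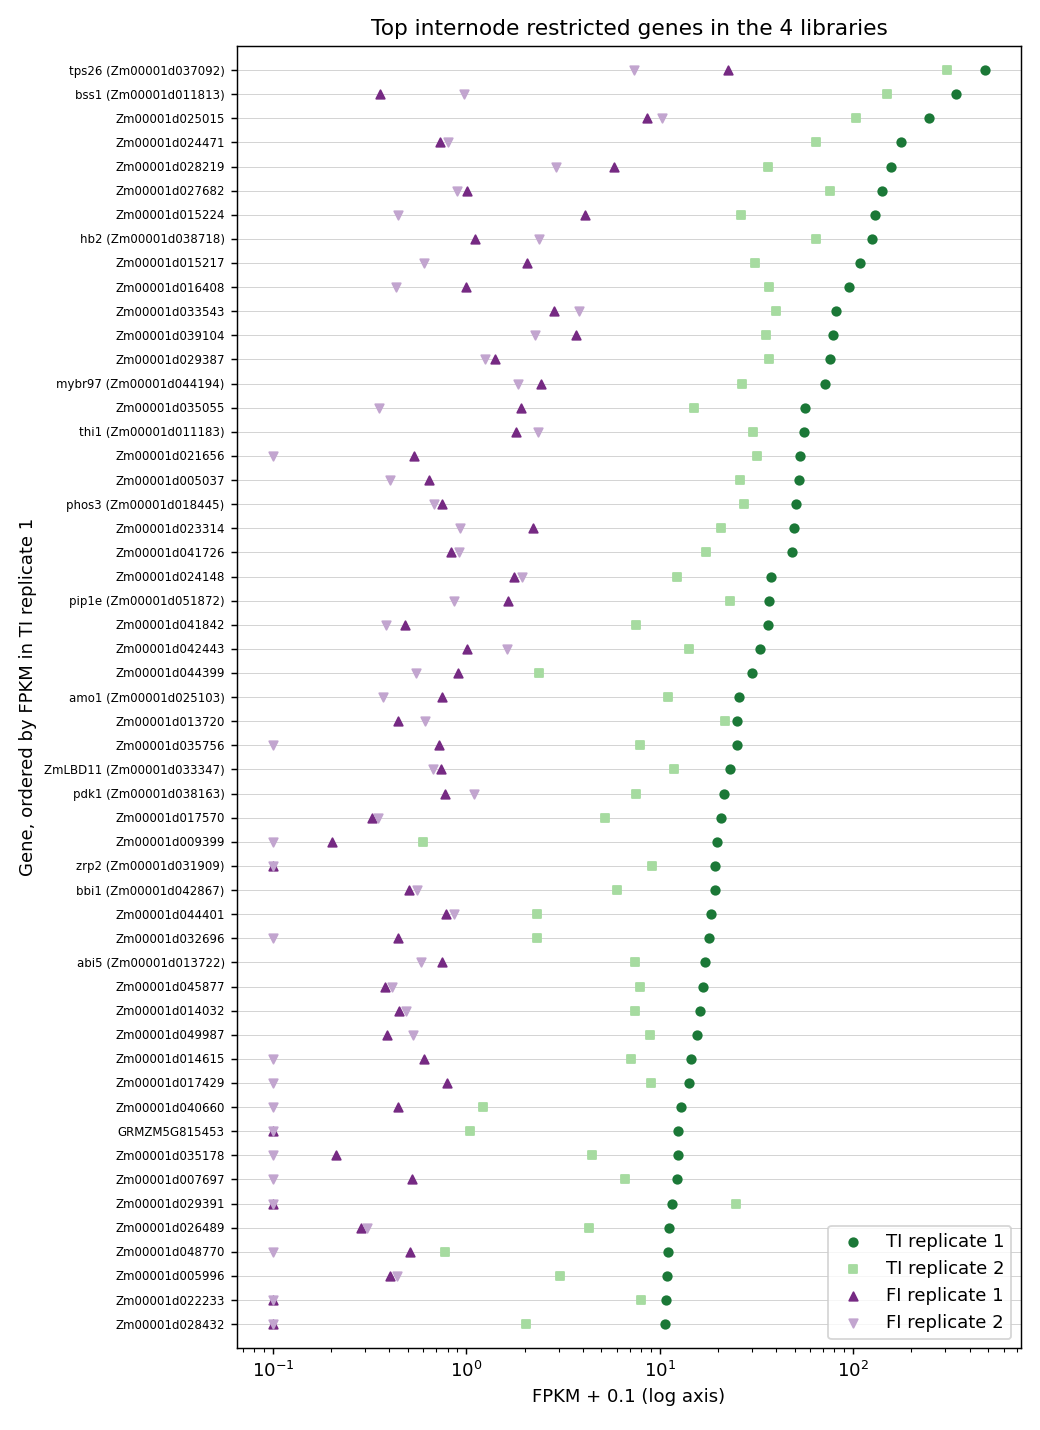
FPKM + 0.1 (x axis, log scale) of the 53 members in TI replicates 1 and 2 and FI replicates 1 and 2, with genes ordered by TI replicate 1. Both TI points lie to the right of both FI points in every gene, as the rule requires, and TI replicate 2 lies left of TI replicate 1 in 52 of 53.

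TI replicate 2 was below TI replicate 1 in 52 of 53 members (98.1%). Among the other genes with at least 10 FPKM in TI replicate 1, the same held for 4476 of 8054 (55.6%). Over the members, the ratio of TI replicate 2 to TI replicate 1 had a median of 0.419, a fall of 58.1%, with quartiles of 0.274 and 0.514 and a range of 0.0254 to 2.16. Of the members, 31 had a ratio of 0.3 to 0.6, 15 were below 0.3 and 7 at 0.6 or above. The counting interval held the median in 32 members, lay below it in 11 and above it in 10, so that in 21 members the ratio was further from the median than counting error allows. Over all fragments of the members, the ratio was 0.457 (0.446 to 0.470). The ratio had a Spearman correlation of 0.12 with the FPKM in TI replicate 1, of 0.03 with the FI share and of 0.36 with gene length over the 53 genes, which share the same 2 libraries.

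The other 8054 genes with at least 10 FPKM in TI replicate 1 had a median ratio of 0.966. The median ratio was higher in classes of genes with a higher FI share. The share and the ratio are both taken over TI replicate 1, so a gene that was high or low in that library by chance moves in both, and part of this order is built in. Where the FI mean was 5 to 10% of TI replicate 1, the median ratio was 0.459 over 76 genes, and at 10 to 20% it was 0.469 over 174. Genes whose FI mean was 1 to 2 times TI replicate 1 had a median of 1.15 (2800 genes), and those over 5 times had 3.05 (29 genes). These classes hold only genes with at least 10 FPKM in TI replicate 1.

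**Figure D3:**
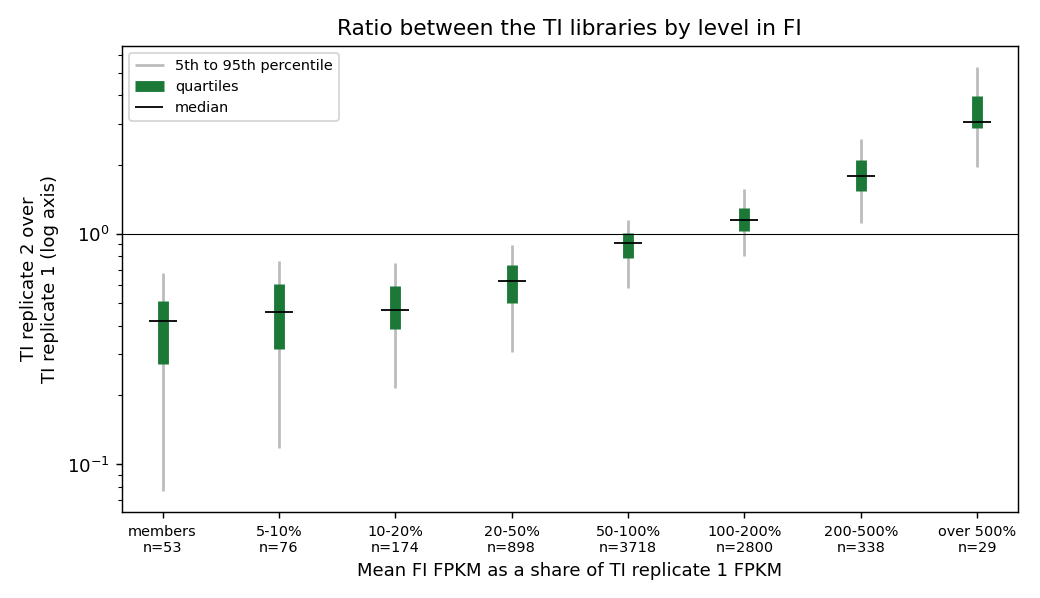
Ratio of FPKM in TI replicate 2 to TI replicate 1 (y axis, log scale) for the 53 members and for other genes with at least 10 FPKM in TI replicate 1, by the mean of the FI libraries as a share of TI replicate 1 (x axis). Black bars are medians, thick bars quartiles and thin bars the 5th to 95th percentile; the median was 0.419 in the members and 3.05 in the genes highest in FI.

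Choosing genes on a single library favours those that happen to be high in it. With TI replicate 2 in place of TI replicate 1 in the rule, 12 genes were found, all of them members (22.6% of the members and 100% of the 12), and their median ratio was 0.503. The same rule turned round, with at least 10 FPKM in an FI library and both TI libraries at no more than 5% of it, gave 0 genes on either FI library. With TI replicate 1 as the only TI library, the FI set chosen on FI replicate 1 had 453 genes, in which FI replicate 2 was at a median of 0.87 of FI replicate 1, against 0.964 over all 8833 genes with at least 10 FPKM there. The set chosen on FI replicate 2 in the same way had 434 genes, and there FI replicate 1 was at a median of 1.03 of FI replicate 2. The part of the floral gene levels, of the leaf markers and of this choice in the ratio of the members was not tested.

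**Figure D4:**
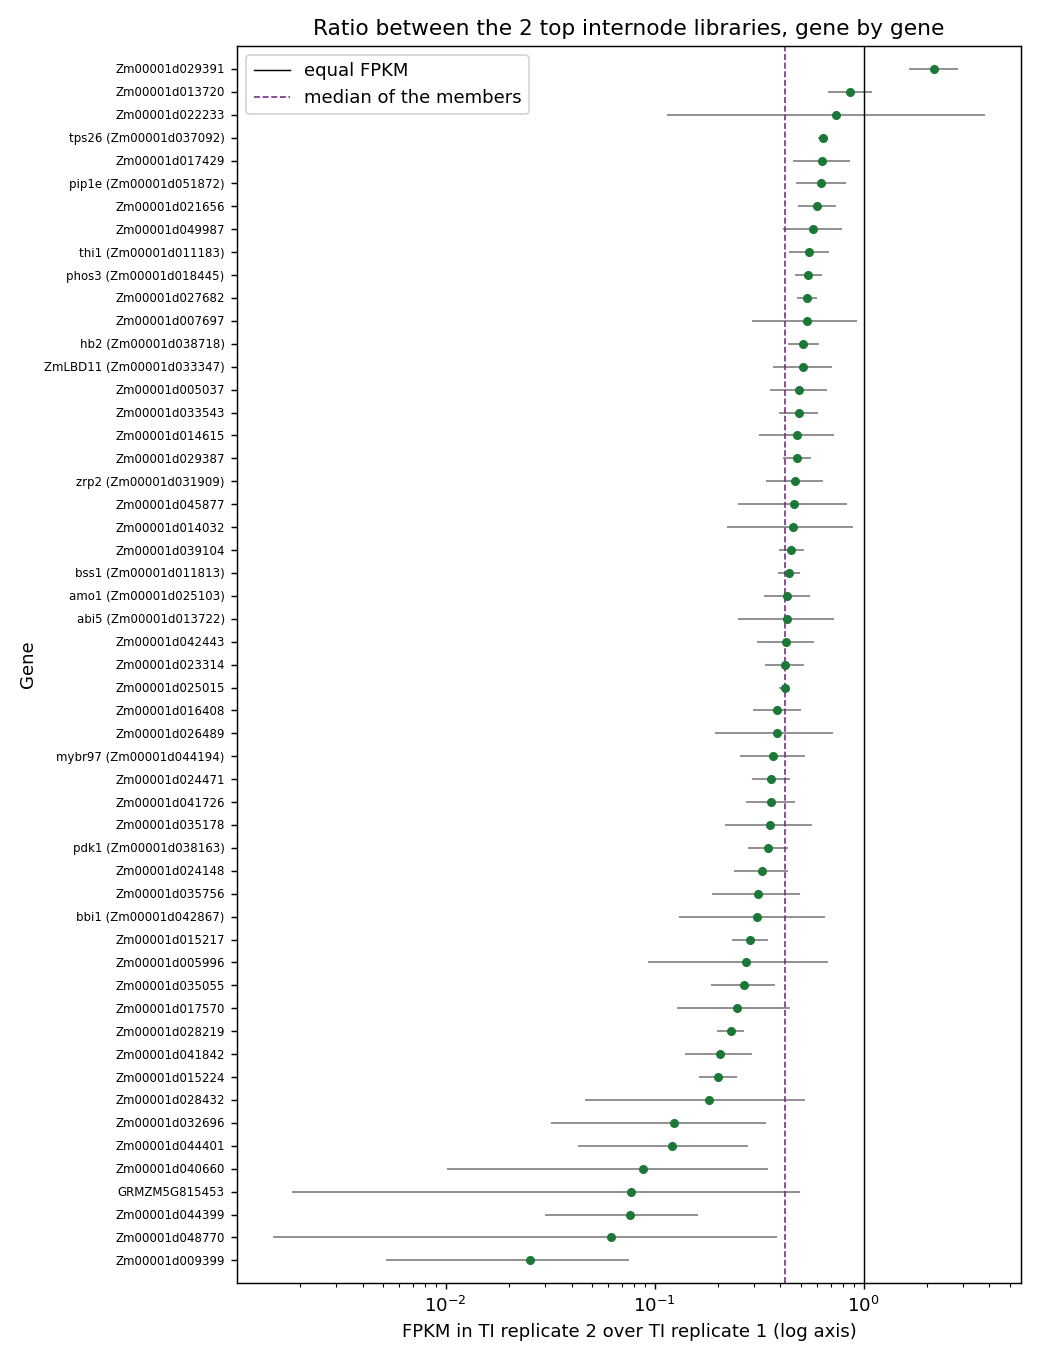
Ratio of FPKM in TI replicate 2 to TI replicate 1 (x axis, log scale) for each member, with the 95% exact binomial interval on recovered fragments. The solid line marks equal FPKM and the dashed line the median of 0.419; 52 of 53 genes lie left of the solid line.

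Functions were taken from gene names and descriptions that the study lists for 48 of the members. The study drew that list from these libraries, so it gives no independent support. Of the 53 members, 32 could be placed in a group by a described function and 21 could not.

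The 7 genes of specialised metabolism included the most abundant member. tps26 (Zm00001d037092), a terpene synthase, had 480 and 307 FPKM in TI, against 22.5 and 7.23 FPKM in FI. Terpene synthases build the carbon skeletons of volatile and defensive terpenes. Its ratio between the TI libraries was 0.640 (0.605 to 0.678), above the median of the members beyond counting error. In the count table, where its model belongs to an earlier annotation, tps26 had 16 and 8 counts in TI, against 0 and 0 in FI, although 3500 and 1816 fragments lay behind its FPKM in TI.

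Zm00001d013720, similar to the Arabidopsis cytochrome P450 CYP87A2, had 25.1 and 21.7 FPKM in TI, against 0.343 and 0.511 FPKM in FI. Its ratio of 0.865 (0.677 to 1.10) was the highest among members with at least 20 FPKM in TI replicate 1, and its interval held 1. Zm00001d035178, related to the P450 family of the benzoxazinoid pathway, had 12.3 and 4.38 FPKM in TI, against 0.112 and 0 FPKM in FI. P450 enzymes add oxygen to the skeletons of many plant defence compounds.

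Zm00001d029391 encodes a DAHP synthase, the entry enzyme of the shikimate pathway, which supplies aromatic amino acids. It had 11.5 and 24.8 FPKM in TI and was at 0 in both FI libraries. It was the only member higher in TI replicate 2, with a ratio of 2.16 (1.66 to 2.84). The count table gave 13 and 37 counts in TI, against 0 and 0 in FI. Against a floor of 3 fragments over both FI libraries, TI replicate 1 was at least 73.8-fold higher and TI replicate 2 at least 160-fold higher.

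The other members of this group had ratios of 0.266 to 0.432. Zm00001d041726, an oxygenase of the 2OG-Fe(II) family, had 48.1 and 17.3 FPKM in TI, against 0.729 and 0.815 FPKM in FI. amo1 (Zm00001d025103), a copper amine oxidase, had 25.4 and 10.99 FPKM in TI, against 0.646 and 0.271 FPKM in FI. The peroxidase Zm00001d035055 had 56.4 and 15.03 FPKM in TI, against 1.81 and 0.253 FPKM in FI, and its ratio of 0.266 was among the 6 lowest of the members with at least 20 FPKM. Class III peroxidases of this kind act on cell wall phenolics.

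The 7 genes of photosynthesis, carbon and cofactors summed to 791 and 341 FPKM in TI, against 16.7 and 18.6 FPKM in FI, and their ratios ran from 0.274 to 0.547. bss1 (Zm00001d011813) is described by its rice relative as specific to bundle sheath cells, the inner photosynthetic cells of a C4 leaf. It had 342 and 150 FPKM in TI, against 0.260 and 0.872 FPKM in FI. The FI level was 0.255% of TI replicate 1 at most, the lowest share among the members above 0 in FI. In the count table bss1 had 733 and 281 counts in TI, against 2 and 4 in FI.

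Zm00001d025015, a plastid-type glucose-6-phosphate dehydrogenase that supplies NADPH through the oxidative pentose phosphate pathway, had 246 and 103 FPKM in TI, against 8.49 and 10.2 FPKM in FI. Its ratio of 0.418 (0.393 to 0.445) sat on the median. pdk1 (Zm00001d038163), pyruvate orthophosphate dikinase of the C4 cycle, had 21.3 and 7.45 FPKM in TI, against 0.680 and 0.998 FPKM in FI. Its ratio was 0.350 (0.280 to 0.434).

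Among these members, 2 belong to the light reactions of photosynthesis. Zm00001d005996, similar to the photosystem I subunit PSAG, had 10.8 and 2.96 FPKM in TI, against 0.304 and 0.340 FPKM in FI. Zm00001d024148, similar to Arabidopsis NDF1 of the chloroplast NDH complex, had 37.3 and 12.2 FPKM in TI, against 1.65 and 1.85 FPKM in FI. With the higher FI library at 4.96% of TI replicate 1, it was the member closest to the limit on FI.

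Zm00001d039104, similar to Arabidopsis CHUP1, which positions chloroplasts along actin, had 78.7 and 35.5 FPKM in TI, against 3.58 and 2.17 FPKM in FI. thi1 (Zm00001d011183), an enzyme of thiamine biosynthesis, had 55.4 and 30.3 FPKM in TI, against 1.71 and 2.26 FPKM in FI. Its ratio of 0.547 was the highest of the group.

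The 7 transport genes had ratios of 0.0254 to 0.628, with a median of 0.538, and summed to 320 and 148 FPKM in TI, against 4.10 and 3.10 FPKM in FI. phos3 (Zm00001d018445), related to the phosphate exporter PHO1 that loads phosphate into the xylem in Arabidopsis, had 50.3 and 27.3 FPKM in TI, against 0.649 and 0.581 FPKM in FI. pip1e (Zm00001d051872), a plasma membrane aquaporin, had 36.8 and 23.1 FPKM in TI, against 1.54 and 0.768 FPKM in FI. Zm00001d027682, of the MtN21 family of membrane proteins, had 141 and 75.8 FPKM in TI, against 0.909 and 0.790 FPKM in FI. All 3 had ratios above the median of the members beyond counting error.

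Other carriers were much lower in TI replicate 2. Zm00001d009399, similar to an Arabidopsis nitrate transporter, had 19.7 and 0.499 FPKM in TI, against 0.102 and 0 FPKM in FI. It was named after its values were seen, as the member with the lowest ratio, 0.0254 (0.00517 to 0.0756), from 146 and 3 fragments in TI. In the count table it had 14 and 0 counts in TI, against 0 and 0 in FI. Zm00001d041842, similar to the amino acid permease AAP3 of Arabidopsis, had 36.4 and 7.45 FPKM in TI, against 0.383 and 0.285 FPKM in FI. Its ratio was 0.205 (0.140 to 0.292), and its 364 and 67 counts in TI gave a CPM ratio of 0.230.

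Zm00001d049987, similar to potassium transporters of the KUP family, had 15.5 and 8.85 FPKM in TI, against 0.287 and 0.428 FPKM in FI. Zm00001d017570, whose rice relative is described as ALMT1, a name used for malate channels, had 20.7 and 5.10 FPKM in TI, against 0.225 and 0.251 FPKM in FI. The counting interval of the potassium carrier's ratio, 0.410 to 0.789, overlapped neither that of the nitrate carrier nor that of the amino acid carrier.

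The 6 regulators summed to 179 and 69.4 FPKM in TI, against 5.23 and 4.72 FPKM in FI. mybr97 (Zm00001d044194), a MYB-type transcription factor, was the most abundant, with 71.8 and 26.6 FPKM in TI, against 2.34 and 1.74 FPKM in FI. ZmLBD11 (Zm00001d033347) is similar to LBD37, a repressor of nitrogen-responsive genes in Arabidopsis. It had 23.0 and 11.8 FPKM in TI, against 0.639 and 0.572 FPKM in FI.

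Zm00001d042443, similar to Arabidopsis BT2, a BTB and TAZ domain protein, had 33.0 and 14.1 FPKM in TI, against 0.914 and 1.53 FPKM in FI. In the count table it had 3 and 0 counts in TI, against 0 and 0 in FI, although 165 and 57 fragments lay behind its FPKM in TI. The gene named abi5 (Zm00001d013722) is listed with the B3 family and not with the bZIP family, to which ABI5 of Arabidopsis belongs. It had 17.0 and 7.36 FPKM in TI, against 0.648 and 0.483 FPKM in FI.

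The related genes Zm00001d032696 and Zm00001d014032 are both similar to Arabidopsis LSH3 and share a single version 3 model. Zm00001d032696 had 18.0 and 2.22 FPKM in TI, against 0.342 and 0 FPKM in FI. Zm00001d014032 had 15.96 and 7.32 FPKM in TI, against 0.347 and 0.388 FPKM in FI. Their ratios were 0.123 (0.0321 to 0.341) and 0.458 (0.223 to 0.888), so the intervals overlapped, and how fragments were divided between such similar genes is uncertain.

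The remaining 5 described genes had ratios of 0.231 to 0.515. Zm00001d028219, similar to the microtubule-associated protein MAP70-2 of Arabidopsis, had 157 and 36.2 FPKM in TI, against 5.68 and 2.81 FPKM in FI. Its ratio of 0.231 (0.198 to 0.268) was below the median beyond counting error, and 726 and 135 counts in TI, against 25 and 23 in FI, stood behind the same gene in the count table. hb2 (Zm00001d038718) is a haemoglobin of the oxygen-binding non-symbiotic type and not a homeobox gene. It had 125 and 64.4 FPKM in TI, against 1.01 and 2.27 FPKM in FI.

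Among the defence genes, bbi1 (Zm00001d042867), a Bowman-Birk type protease inhibitor, had 19.2 and 5.93 FPKM in TI, against 0.406 and 0.454 FPKM in FI. Zm00001d035756, similar to PGIP1, which blocks the pectin-degrading enzymes of pathogens, had 24.9 and 7.78 FPKM in TI, against 0.626 and 0 FPKM in FI. Zm00001d029387, a metacaspase similar to AMC1 of Arabidopsis, had 76.3 and 36.6 FPKM in TI, against 1.31 and 1.16 FPKM in FI. It lies 4 places from the DAHP synthase gene Zm00001d029391 in the RefSeq gene order, and the ratios of this pair, 0.479 and 2.16, differed beyond their counting intervals.

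The 21 members with no described function summed to 939 and 336 FPKM in TI, against 17.6 and 8.48 FPKM in FI. Zm00001d024471 had 177 and 63.9 FPKM in TI, against 0.630 and 0.705 FPKM in FI. Zm00001d015224 had 129 and 26.1 FPKM in TI, against 3.99 and 0.343 FPKM in FI, and Zm00001d015217 had 108 and 30.8 FPKM in TI, against 1.96 and 0.506 FPKM in FI. Both TI libraries were above both FI libraries in these 3 genes, as the rule requires, and TI replicate 2 was 6.55 times the higher FI library in Zm00001d015224. In the count table Zm00001d024471 had 16 and 4 counts in TI, against 0 and 0 in FI, although 427 and 125 fragments lay behind its FPKM in TI. The ratio of Zm00001d015224, 0.202, was below the median beyond counting error.

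Zm00001d016408 had 95.4 and 36.8 FPKM in TI, against 0.896 and 0.334 FPKM in FI, and Zm00001d033543 had 81.2 and 39.8 FPKM in TI, against 2.75 and 3.73 FPKM in FI. Zm00001d021656 had 53.0 and 31.9 FPKM in TI, against 0.437 and 0 FPKM in FI, with a ratio of 0.602 that was among the 6 highest of the members with at least 20 FPKM. Zm00001d044399 had the lowest ratio of that class, 0.0758 (0.0298 to 0.161), with 30.02 and 2.28 FPKM in TI, against 0.802 and 0.448 FPKM in FI.

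The 8 members of this group not named elsewhere (Zm00001d005037, Zm00001d023314, Zm00001d044401, Zm00001d045877, Zm00001d014615, Zm00001d040660, Zm00001d007697 and Zm00001d026489) ranged from 11.02 to 52.5 FPKM in TI replicate 1 and from 1.12 to 25.8 FPKM in TI replicate 2, against at most 2.11 FPKM in either FI library. Their ratios ran from 0.0882 to 0.533, and Zm00001d023314 had the median ratio of all members. No function is described for them in the sources used here.

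Of the members, 5 were at 0 in both FI libraries. zrp2 (Zm00001d031909) had 19.3 and 9.05 FPKM in TI, at least 98.1-fold above the floor of 3 fragments in FI when the TI libraries were pooled. The DAHP synthase gene was at least 112-fold above it on the same measure. The other 3 genes at 0 in FI, GRMZM5G815453, Zm00001d022233 and Zm00001d028432, rested on 16, 5 and 27 fragments in TI replicate 1 and were at least 7.79-fold, 3.67-fold and 14.2-fold above it.

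At the edges of the rule, Zm00001d028432 and Zm00001d022233 were just inside the minimum with 10.6 and 10.7 FPKM in TI replicate 1, while Zm00001d020006 and Zm00001d024676 were just outside with 9.41 and 9.34 FPKM. On the FI limit, Zm00001d017429 and Zm00001d024148 were just inside, at 4.95% and 4.96% of TI replicate 1, and Zm00001d003212 and Zm00001d035717 just outside at 5.04% and 5.30%. Zm00001d048770 and Zm00001d044399 came closest to losing the condition on TI replicate 2, with 0.672 and 2.28 FPKM there, against 0.414 and 0.802 FPKM in the higher FI library. The only gene which that condition removed was Zm00001d050055, with 23.1 and 0.618 FPKM in TI, against 1.14 and 0 FPKM in FI, so that 54 genes remained without it.

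The deposited counts gave the members a second measurement from the same libraries under another annotation. A count model was found for 36 members, 35 models in all. Both TI libraries were above both FI libraries in CPM in 33 of these 35 models, beside 42.2% of the 8107 genes with at least 10 FPKM in TI replicate 1 in the FPKM table. The rule used this contrast in the same libraries, so nothing is read from that count, and 22 of the 35 met the rule on CPM. Over the 34 models with at least 10 counts in TI replicate 1, the median CPM ratio of TI replicate 2 to TI replicate 1 was 0.456, and it was below 1 in 33. The exception was the DAHP synthase gene Zm00001d029391, at 3.55.

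**Figure D5:**
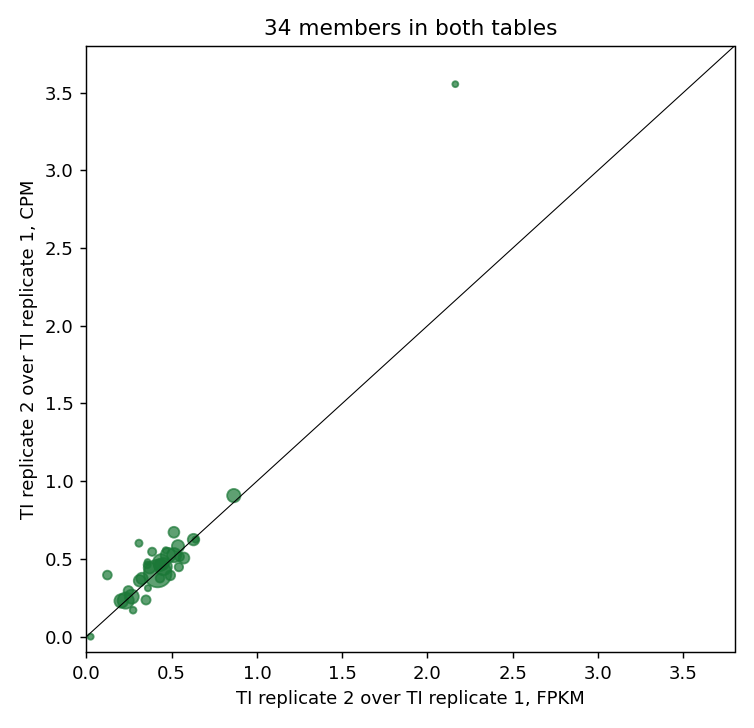
Ratio of TI replicate 2 to TI replicate 1 in FPKM (x axis) and in CPM from the deposited counts (y axis) for the 34 members with at least 10 counts in TI replicate 1; the area of a point grows with the square root of that count and the line marks equal ratios. Zm00001d029391 is the single point above 1 on both axes, at 2.16 and 3.55.

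Across all genes, limma on log2(FPKM + 1) called 0 of 19531 genes (0%) between TI and FI at a false discovery rate (FDR) under 0.05 with an absolute log2FC over 2, and edgeR's quasi-likelihood test called 0 of 15479 count models (0%). At an unadjusted p under 0.05 there were 3524 genes (18.0%) by limma and 2443 models (15.8%) by edgeR. DESeq2 called 238 models, and edgeR's exact test called 486 models and, on the recovered fragments, 504 genes. Among the count models, 1497 (9.67%) were higher in TI and 946 (6.11%) higher in FI at that p. Without TI replicate 2, limma called 2040 genes and edgeR 2343 models, and without TI replicate 1, 8 genes and 182 models. In these fits the FI libraries alone supply the spread, and the lone TI library is assumed to vary as they do. No p of a single member is given from these fits.

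Related genes were counted in the same edgeR fit from lists matched by symbol. The only members in these lists, pip1e among the aquaporins and tps26 among the terpene synthases, were not taken out. The rule chose both on this contrast in the same libraries, so nothing is read from their part in those counts. The members phos3, mybr97 and bbi1 carry names of the phosphate transport, MYB and defence families. They were not matched by symbol and so are not in the counts of those lists. Of 18 tested aquaporin models, 3 were higher in TI and 3 higher in FI at an unadjusted p under 0.05 by edgeR, with a median log2FC (TI over FI) of -0.07, beside a median of 0.00 over all models. Of 6 terpene synthase models, 2 were higher in TI and 0 higher in FI, with a median of -0.22. Of 14 models of nitrate, phosphate and potassium transport, 3 were higher in TI and 0 in FI, with a median of 0.13, and of 23 MYB models, 3 and 1, with a median of -0.23. The 5 defence models had 4 higher in TI and 0 in FI, with a median of 2.23. Other lists were also counted. Their medians were 1.08 for benzoxazinoids (9 tested models), 0.82 for secondary wall and lignin (4), 0.78 for homeobox genes (11), 0.47 for WRKY (8) and 0.21 for bZIP (19). They were -0.24 for sugar transport (5), -0.54 for ERF (12), -0.54 for bHLH (14), -1.68 for MADS (12) and -2.08 for peroxidases (1). None of the models in any of these lists passed the FDR.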

How the data were processed

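Total RNA of 2 TI and 2 FI libraries was sequenced. The submitters' processing notes name FastQC 0.11.2, Trimmomatic, TopHat2 2.0.13 and B73 RefGen_v3. The authors deposited raw counts per transcript under version 3 names, with the counting tool not given in the sources used here, and FPKM per gene from CLC Genomics Workbench on version 4 identifiers. Count columns named for the floral stem were taken as FI, because the series has only 2 tissues. The authors' fold changes, p-values and FDR were not used.

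Fragments were recovered from the FPKM as whole multiples (24149 of 24149 genes above 0 in at least 2 libraries, tolerance 0.01). Counts were summed per model and tested with edgeR 4.0.16 (filterByExpr, TMM, quasi-likelihood), while limma 3.58.1 took log2(FPKM + 1) of those genes that averaged 1 FPKM or more (R 4.3.3). Both adjust p by Benjamini-Hochberg. A log2FC on the log2(FPKM + 1) scale understates the change of low genes. DESeq2 1.42.0 was an alternative. Scripts were tested on simulated data. Python 3.11.15 and SciPy were used elsewhere.

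The members and gene lists were chosen with earlier results of these data known. Named were the 12 members highest in TI replicate 1, the 6 lowest and 6 highest ratios among those with at least 20 FPKM, genes next to each threshold, members with a name or in a gene list, and neighbours. Other members with a described function were named by role after their values were seen. Lists also covered benzoxazinoids, sugar transport, secondary wall and lignin, peroxidases, homeobox, WRKY, bZIP, ERF, MADS and bHLH genes, and a NAC list matched no model. All these and the main gene lists (aquaporins, terpene synthases, nitrate, phosphate and potassium transport, MYB, defence) were matched by symbol in a RefSeq gene table (Zm-B73-REFERENCE-NAM-5.0). Its coordinates were used only to put genes in order when neighbours were looked up. Sequence features and protein identity were not analysed here.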

Additional observations from a re-analysis of the deposited data

How the results depend on the processing

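The number of members was 53. It was 12 with TI replicate 2 setting the rule, and 12 without TI replicate 1, 85 and 32 with an FPKM minimum of 5 and 20, 26 and 110 with 0.025 and 0.10 of TI replicate 1 allowed in FI, and 22 of 35 models on CPM. It was 54 without TI replicate 2, and without a single FI library it ranged from 66 to 109, highest without FI replicate 1. The median ratio of TI replicate 2 to TI replicate 1 was 0.419. It was 0.406 with TMM-scaled FPKM, 0.456 on CPM, 0.503 with TI replicate 2 setting the rule, 0.435 with 0.10 allowed in FI and 0.432 over members with at least 30 fragments in TI replicate 1. Chosen without 1 library it ranged from 0.385 (without FI replicate 1) to 0.503 (without TI replicate 1), and it stayed under 1 in every alternative run. Genes called between TI and FI numbered 0 in the FPKM and 0 in the counts. They numbered 504 with the exact test on recovered fragments, 238 with DESeq2, 361 without a filter on low counts and 486 with the exact test on counts. Without a single library they ranged from 0 to 2040 in FPKM and from 0 to 2343 in counts, and the highest values came without TI replicate 2, where the FI libraries alone supply the spread. The cause of these changes was not tested. With the replicate number as a block, 0 genes were called in either table. Deviations of libraries with the same number had a correlation of 0.17 over only 2 numbers, so the libraries were treated as sharing only a number. The exact tests, the 2 values without TI replicate 1 and the minimum of 30 fragments were chosen after seeing the data.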

Other observations

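Just beyond the limit on FI, 57 genes had their higher FI library above 5% and up to 10% of TI replicate 1, and these were looked at after their values were seen. wip1 (Zm00001d008548), a wound-induced Bowman-Birk type inhibitor, had 600 and 197 FPKM in TI, against 57.7 and 14.8 FPKM in FI. Zm00001d023559, similar to a plastid fructose-bisphosphate aldolase of the Calvin cycle, had 498 and 151 FPKM in TI, against 33.1 and 32.1 FPKM in FI. Zm00001d021938, similar to the Arabidopsis polyol transporter PLT5, had 192 and 144 FPKM in TI, against 12.5 and 13.6 FPKM in FI. The MYB genes myb21 (Zm00001d035605) and myb88 (Zm00001d048623) had 206 and 79.5 FPKM and 92.6 and 30.4 FPKM in TI, against 19.9 and 8.53 FPKM and 6.67 and 6.01 FPKM in FI. TI replicate 2 was below TI replicate 1 in 57 of the 57 genes, with a median ratio of 0.480.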
